A study of Homo sapiens with 6 samples.

Results

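The osteoblast lineage genes described here are 9 genes named as a group: the transcription factors RUNX2 and SP7, the matrix and mineralisation genes ALPL, SPP1, IBSP and BGLAP, and the signalling genes TNFRSF11B, BMP2 and BMP4. They were looked up by symbol among 58219 gene identifiers, and all 9 were found. RNA was sequenced from U2OS, a human osteosarcoma cell line, in 2 groups of 3 libraries. The first group expressed a short hairpin RNA (shRNA) against E4F1, a zinc finger transcription factor, and the second a scramble shRNA, called control shRNA below. Both groups were grown in DMEM with 10% FBS, infected for 24 h, selected with puromycin for 48 h and lysed 72 h after infection. The 3 libraries of a group came from independent pools of 1 cell line, so p-values measure the spread between pools of that line. The labels give no hairpin sequence and tie no pool of one group to a pool of the other.

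Osteoblasts arise from mesenchymal progenitors through RUNX2, which binds the RUNX core motif in promoters of bone genes, and then SP7 (osterix), which acts after RUNX2. Maturing osteoblasts make tissue-nonspecific alkaline phosphatase (ALPL), which frees phosphate for mineral, and the secreted matrix proteins osteopontin (SPP1), bone sialoprotein (IBSP) and osteocalcin (BGLAP). BMP2 and BMP4 are ligands that drive the lineage through SMAD proteins. TNFRSF11B encodes osteoprotegerin, a soluble decoy receptor that keeps RANKL from activating osteoclasts.

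Promoter sequences show where the RUNX core motif stands in these genes. RefSeq promoters on GRCh38.p14, from 250 bases before to 50 bases after a start site, were matched for 6 of the 9 genes (RUNX2, ALPL, SPP1, IBSP, BGLAP and BMP4), with 11 windows in all. The motif TGTGGT, searched on both strands, stood in 4 of the 11 windows, against 13.1% of 35116 promoters of the same length. These 4 windows belong to RUNX2, SPP1, BGLAP and BMP4 and are shown because RUNX2 is the factor that binds this motif. Each is printed 5′ to 3′ on the strand of the gene, with matches on either strand in capitals. A match is a description of the letters and not a binding site.
RUNX2, chr6:45328080-45328379, plus strand: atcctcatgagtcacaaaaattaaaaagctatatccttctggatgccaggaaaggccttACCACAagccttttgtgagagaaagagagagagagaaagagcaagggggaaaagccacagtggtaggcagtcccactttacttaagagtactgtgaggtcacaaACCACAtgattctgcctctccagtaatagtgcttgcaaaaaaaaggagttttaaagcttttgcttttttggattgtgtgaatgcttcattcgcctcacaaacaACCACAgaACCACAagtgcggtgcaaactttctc
SPP1, chr4:87975464-87975763, plus strand: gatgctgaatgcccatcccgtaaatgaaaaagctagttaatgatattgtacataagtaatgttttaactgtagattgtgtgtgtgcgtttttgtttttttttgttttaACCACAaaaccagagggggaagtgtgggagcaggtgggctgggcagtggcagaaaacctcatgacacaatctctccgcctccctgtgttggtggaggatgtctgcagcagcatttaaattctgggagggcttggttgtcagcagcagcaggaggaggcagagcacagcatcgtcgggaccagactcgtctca
BGLAP, chr1:156241934-156242233, plus strand: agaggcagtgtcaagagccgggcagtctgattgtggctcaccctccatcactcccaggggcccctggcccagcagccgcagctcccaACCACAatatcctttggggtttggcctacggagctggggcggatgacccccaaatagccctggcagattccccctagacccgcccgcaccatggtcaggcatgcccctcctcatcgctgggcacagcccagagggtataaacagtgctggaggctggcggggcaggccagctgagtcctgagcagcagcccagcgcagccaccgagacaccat
BMP4, chr14:53954439-53954738, minus strand: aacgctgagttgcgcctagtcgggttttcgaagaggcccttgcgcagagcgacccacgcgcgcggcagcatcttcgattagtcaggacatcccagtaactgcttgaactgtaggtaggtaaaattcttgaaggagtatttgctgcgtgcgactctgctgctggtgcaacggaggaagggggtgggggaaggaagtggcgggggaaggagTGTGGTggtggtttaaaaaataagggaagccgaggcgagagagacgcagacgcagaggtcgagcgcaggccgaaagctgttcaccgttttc
The RUNX2 window held 4 matches, beginning at −191, −87, 16 and 24 relative to the start site, which is 0. The other 3 windows held 1 each, at −142 in SPP1, −163 in BGLAP and −41 in BMP4. The core of the cAMP response element, TGACGT, was in 0 of the 11 windows and in 7.98% of the 35116 promoters.

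Reads in genes numbered 16159934 to 16892139 in the E4F1 shRNA libraries and 14947085 to 16284450 in the control shRNA libraries. E4F1 itself had 51, 53 and 41 reads in the E4F1 shRNA libraries and 233, 286 and 297 reads in the control libraries. Its level averaged 2.94 ± 0.384 and 17.4 ± 1.76 CPM (SD, n = 3 each; log2 fold change −2.57, SE 0.135, edgeR adjusted p = 7.65e-10). CPM are read counts normalised for library size, with edgeR's TMM scaling. A cell cycle score, the mean log2 CPM of 25 replication and mitosis genes centred over the libraries, was 0.18, 0.18 and 0.062 in the E4F1 shRNA libraries, against −0.17, 0.047 and −0.29 in the control libraries. Control library 2 thus stood near the E4F1 shRNA libraries in this score. On the first principal component (53.9% of the variance) it stood at 9.85, against 20.9 and 31.1 for the other control libraries and −22.7 to −17.5 for the E4F1 shRNA libraries. On the second component it stood apart from all other libraries, at −23.0 against −1.04 to 9.29.

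Of the 9 genes, 6 passed the filter on low counts and were tested, each with at least 98 reads in every library. TNFRSF11B and BMP4 rose with the E4F1 shRNA, SPP1 fell, and RUNX2, ALPL and BMP2 did not pass adjusted p 0.05. That is 2 of 6 higher and 1 of 6 lower, against 14.4% higher and 14.4% lower, 28.9% in either direction, among all 15765 genes tested. The groups did not overlap in 2 of the 6 genes, TNFRSF11B and BMP4, against 41.8% of all genes tested. The median log2 fold change of the 6 genes was −0.092, against −0.0096 over all genes tested. SP7, IBSP and BGLAP did not pass the filter.

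**Figure D1:**
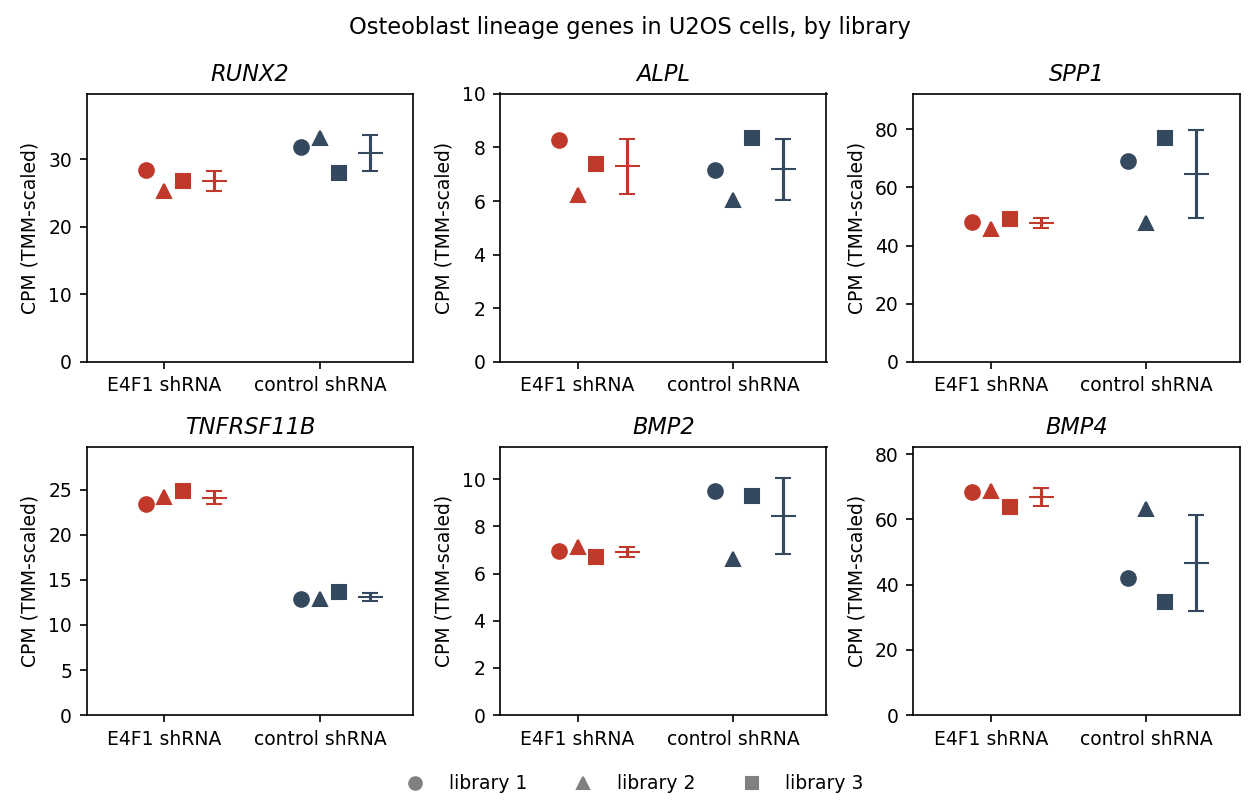
Level of the 6 tested genes in each library, as TMM-scaled CPM on a linear axis from 0, with the E4F1 shRNA libraries left (red) and the control shRNA libraries right (blue); symbols mark the library number, and bars give mean ± SD of 3 libraries. TNFRSF11B at 23.4 to 24.8 CPM stands apart from the control range of 12.8 to 13.6 CPM, while for SPP1, BMP2 and BMP4 control library 2 lies near the E4F1 shRNA libraries.

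RUNX2, the factor that commits cells to the osteoblast lineage, was transcribed in both groups. The gene (ENSG00000124813.20) lies at chr6:45328157-45664349 on the plus strand of GRCh38. It measured 28.3, 25.4 and 26.7 CPM in the E4F1 shRNA libraries, against 31.8, 33.1 and 27.9 CPM in the control libraries. The ranges overlapped, since E4F1 shRNA library 1 exceeded control library 3. The log2 fold change was −0.21 (SE 0.0816) and did not pass the test (edgeR adjusted p = 0.0663). Without control library 3 it was −0.28 and passed (adjusted p = 0.0203). On the opposite strand within the RUNX2 locus lie 3 genes that share no exonic bases with it: SUPT3H had 5 to 11 reads per library, AL096865.1 had 5 to 12, and RUNX2-AS1 had 0.

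SP7, the factor that acts after RUNX2, was close to undetected. The gene (ENSG00000170374.5, chr12:53326575-53345315, minus strand) had 0 reads in every E4F1 shRNA library, against 0, 1 and 0 in the control libraries. A count of 0 allows up to 3 reads, or 0.178 to 0.200 CPM in these libraries, which covers counting error only. No difference was detectable at this depth.

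Other osteoblast transcription factors, a list of 14 genes, had 10 tested members, of which 2 rose and none fell, with a median log2 fold change of 0.15. Beside the background of 14.4% in each direction, the 2 that rose were ATF4 and SOX4. ATF4, which RUNX2 works with in osteoblasts and which also serves the stress response, averaged 449.7 ± 17.3 and 359.7 ± 20.5 CPM in E4F1 shRNA and control cells (SD, n = 3 each; log2 0.32, SE 0.0554, adjusted p = 0.000376). SOX4, a progenitor factor, averaged 85.3 ± 3.27 and 71.2 ± 3.35 CPM in E4F1 shRNA and control cells (log2 0.26, SE 0.0593, adjusted p = 0.00347). With the cell cycle covariate neither passed, at log2 fold changes of 0.19 for ATF4 (adjusted p = 0.147) and 0.20 for SOX4 (0.202). The other 4 members had at most 5 reads in any library, among them DLX5 with 0 to 1 reads and DLX6 and TWIST1 with 0, named here after their values were seen.

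Among the matrix and mineralisation genes, SPP1 was abundant and fell, ALPL was low and did not pass the test, and IBSP and BGLAP were close to undetected. SPP1 (osteopontin, ENSG00000118785.13, chr4:87975650-87983426, plus strand) measured 48.2, 45.8 and 49.2 CPM in the E4F1 shRNA libraries, against 69.1, 47.7 and 76.9 CPM in the control libraries. Control library 2 lay within the range of the E4F1 shRNA libraries, and the other control libraries lay above it. The means were 47.7 ± 1.73 and 64.5 ± 15.1 CPM in E4F1 shRNA and control cells (SD, n = 3 each), and the log2 fold change was −0.43 (SE 0.116, adjusted p = 0.00981). The call rested on few libraries. It was lost without E4F1 shRNA library 2 (adjusted p = 0.0620), without control library 1 (0.0710), with DESeq2's Wald test (0.115) and with the cell cycle score as covariate (0.569), where the log2 fold change was 0.12. The log2 fold change was −0.60 without control library 2 (adjusted p = 9.22e-08) and −0.29 without control library 3 (0.0463).

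ALPL (ENSG00000162551.13, chr1:21509372-21578412, plus strand) measured 8.28, 6.23 and 7.37 CPM in the E4F1 shRNA libraries and 7.15, 6.05 and 8.34 CPM in the control libraries. The ranges lay almost on each other. Its log2 fold change was 0.023 (SE 0.146, adjusted p = 0.925), and its sign turned when single libraries were left out.

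IBSP (bone sialoprotein, ENSG00000029559.6, chr4:87799581-87812435, plus strand) had 0, 3 and 1 reads in the E4F1 shRNA libraries and 1, 0 and 4 in the control libraries. BGLAP (osteocalcin, ENSG00000242252.1, chr1:156241962-156243321, plus strand) had 0, 1 and 0 reads in the E4F1 shRNA libraries and 0, 2 and 3 in the control libraries. BGLAP could be measured only in part. Of its 1190 exonic bases, 398 also belong on the same strand to the readthrough gene PMF1-BGLAP, and reads on shared bases were counted for neither gene. PMF1-BGLAP had 0 reads in every library, a count that covers only bases it shares with no other gene of its strand. In the transcript BGLAP-201, 3 of 4 exons are wholly shared, so only the remaining exon could collect reads. PMF1, the gene before BGLAP, had 167 to 194 reads and a log2 fold change of −0.087 (adjusted p = 0.591). No difference in IBSP or BGLAP was detectable at this depth.

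Of 22 other bone matrix and mineralisation genes, 15 were tested, 1 rose and 4 fell, with a median log2 fold change of 0.064 (5 of 15 called, beside 28.9% of all genes tested). SLC20A1, a phosphate carrier, averaged 277.7 ± 4.64 and 336.4 ± 18.5 CPM in E4F1 shRNA and control cells (SD, n = 3 each; log2 −0.28, SE 0.0536, adjusted p = 0.00102). ENPP1, which makes the mineralisation inhibitor pyrophosphate, rose by 0.45 on the log2 scale (SE 0.101, adjusted p = 0.00323). COL5A1, a collagen chain, had a log2 fold change of −0.26 (SE 0.059, adjusted p = 0.00359), and GPNMB, the glycoprotein osteoactivin, one of −0.38 (SE 0.0928, adjusted p = 0.00587). GPNMB was laid out like SPP1, with 43.6, 40.4 and 44.3 CPM in the E4F1 shRNA libraries against 58.8, 45.3 and 62.4 CPM in the control libraries. With the cell cycle covariate none of these 4 passed, at log2 fold changes of −0.17 for SLC20A1 (adjusted p = 0.190), 0.21 for ENPP1 (adjusted p = 0.458), −0.17 for COL5A1 (adjusted p = 0.243) and 0.00101 for GPNMB (0.997). The other 7 members had at most 9 reads in any library, among them BGN, DCN, MGP and POSTN, named after their values were seen.

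The label of U2OS as a bone tumour line was set against osteoblast markers. COL1A1, the main collagen of bone, averaged 1083 ± 41.1 and 1207 ± 64.2 CPM in E4F1 shRNA and control cells, and SPARC (osteonectin) 1186 ± 14.9 and 1265 ± 19.3 CPM (SD, n = 3 each). COL1A1 was among the matrix genes that fell (log2 −0.16, SE 0.0553, edgeR adjusted p = 0.0422), and SPARC did not pass (adjusted p = 0.173). The values of COL1A1 and SPARC are from the comparison of all 6 libraries only, without the covariate. COL1A2, the partner chain of COL1A1, averaged 0.675 ± 0.393 and 0.770 ± 0.167 CPM in the same groups. RUNX2, ALPL and SPP1 were thus detected beside COL1A1 and SPARC, while SP7, IBSP and BGLAP were at 0 to 4 reads and COL1A2 was low. Of 7 osteocyte genes, the markers of osteoblasts buried in bone, PHEX and PDPN were tested and neither passed, and DMP1, MEPE, SOST, FGF23 and DSPP had at most 4 reads.

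Among the signalling genes, TNFRSF11B rose with no overlap between groups. The gene (osteoprotegerin, ENSG00000164761.8, chr8:118923557-118952200, minus strand) measured 23.4, 24.2 and 24.8 CPM in the E4F1 shRNA libraries, against 12.8, 12.8 and 13.6 CPM in the control libraries. Every E4F1 shRNA library exceeded every control library, and control library 2 lay with the other control libraries. The means were 24.1 ± 0.688 and 13.1 ± 0.444 CPM in E4F1 shRNA and control cells (SD, n = 3 each), 1.84-fold higher (log2 0.88, SE 0.0852, adjusted p = 1.23e-06). It passed in all 15 alternative fits, at log2 fold changes of 0.87 to 0.96.

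TNFRSF11B acts on RANKL (TNFSF11), the osteoclast-activating cytokine, which had 0 to 1 reads per library, and its receptor RANK (TNFRSF11A) had 0 to 2, both named after their values were seen. Of the 10 genes of the list of RANKL and osteoclast signals, 5 were tested, 1 rose and 2 fell (3 of 5 called, beside 28.9% of all genes tested). CSF1, the growth factor of osteoclast precursors, averaged 14.9 ± 1.68 and 21.8 ± 1.30 CPM in E4F1 shRNA and control cells (SD, n = 3 each; log2 −0.55, SE 0.0968, adjusted p = 0.000449). IL11, a cytokine that promotes osteoclast formation, averaged 10.5 ± 1.43 and 18.5 ± 4.44 CPM in E4F1 shRNA and control cells (log2 −0.81, SE 0.150, adjusted p = 0.000666). PTGS2, the inducible enzyme of prostaglandin synthesis, rose by 0.75 (SE 0.195, adjusted p = 0.00816). CSF1 passed with the cell cycle covariate (log2 −0.51, adjusted p = 0.0334). IL11 did not, at a smaller −0.25 (0.459), and PTGS2 did not, at a larger 1.007 (0.0702).

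The ligands BMP2 and BMP4 had opposite signs, and only BMP4 passed the test. BMP4 (ENSG00000125378.15, chr14:53949736-53958761, minus strand) measured 68.6, 68.6 and 63.7 CPM in the E4F1 shRNA libraries, against 42.1, 63.1 and 34.6 CPM in the control libraries. The groups did not overlap, but control library 2 reached within 1 CPM of the lowest E4F1 shRNA library. The means were 66.9 ± 2.81 and 46.6 ± 14.8 CPM in E4F1 shRNA and control cells (SD, n = 3 each), 1.44-fold higher (log2 0.52, SE 0.135, adjusted p = 0.00818). The call was lost without control library 1 (log2 0.47, adjusted p = 0.0526), with DESeq2's Wald test (adjusted p = 0.132) and with the cell cycle score as covariate (log2 −0.086, adjusted p = 0.676). The log2 fold change was 0.82 without control library 2 (adjusted p = 7.09e-09) and 0.34 without control library 3 (0.0209).

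BMP2 (ENSG00000125845.6, chr20:6767664-6780280, plus strand) measured 6.97, 7.12 and 6.70 CPM in the E4F1 shRNA libraries and 9.48, 6.61 and 9.30 CPM in the control libraries. Control library 2 was the lowest of all 6 libraries, and the other control libraries were the highest. The log2 fold change was −0.28 (SE 0.142) and did not pass the test (adjusted p = 0.146). Without control library 2 it was −0.43 and passed (adjusted p = 0.0127).

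SPP1, BMP2 and BMP4 thus shared a layout in which control library 2 lay near the E4F1 shRNA libraries, as it did in the cell cycle score. With that score as a covariate, the log2 fold changes were 0.12 for SPP1 (adjusted p = 0.569), 0.081 for BMP2 (0.876) and −0.086 for BMP4 (0.676), the opposite sign in each case. TNFRSF11B kept 0.96 (adjusted p = 3.45e-05), and RUNX2 stood at −0.36 (0.0566) and ALPL at 0.36 (0.386). Of the 25 genes of the score, 17 rose and none fell in the comparison of all 6 libraries. Among all genes tested, 14.4% rose and 14.4% fell. The score also differed between the groups, so the share of the change in SPP1 and BMP4 that goes with it and the share that goes with the shRNA cannot be told apart.

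**Figure D2:**
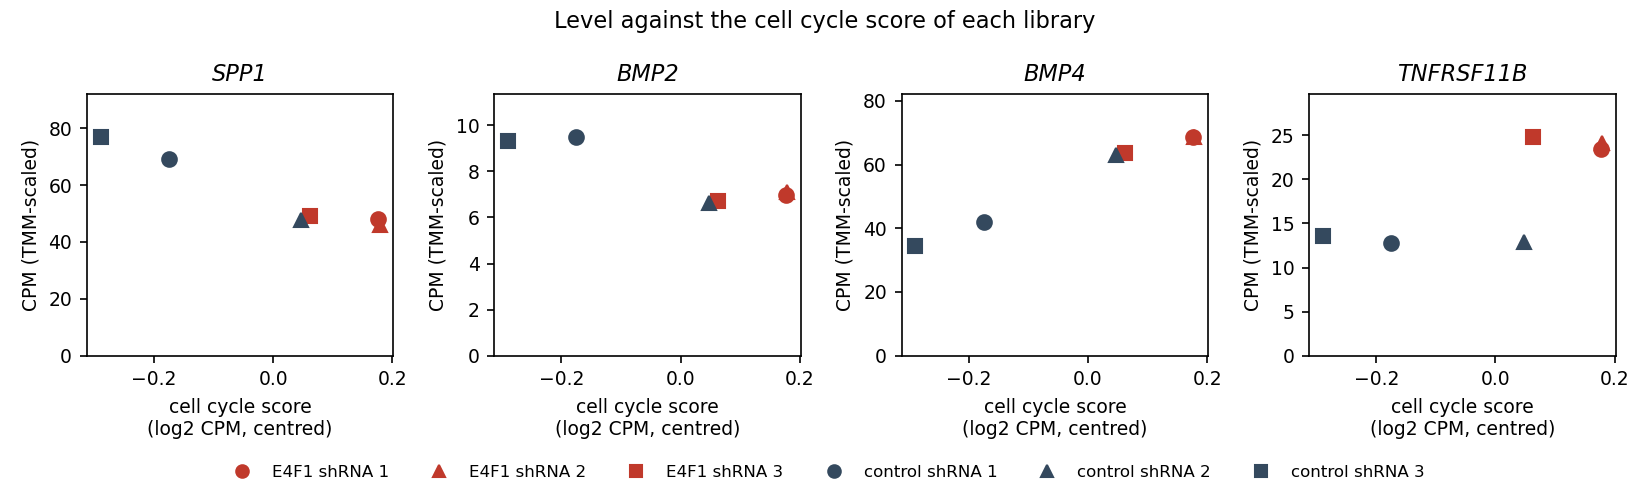
Level of SPP1, BMP2, BMP4 and TNFRSF11B (TMM-scaled CPM, linear axis from 0) against the cell cycle score of each library (mean log2 CPM of 25 genes, centred), with E4F1 shRNA libraries in red and control shRNA libraries in blue. Control library 2, at a score of 0.047, lies beside E4F1 shRNA library 3 at 0.062 for SPP1, BMP2 and BMP4, but at 12.8 CPM against 24.8 CPM for TNFRSF11B.

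**Figure D3:**
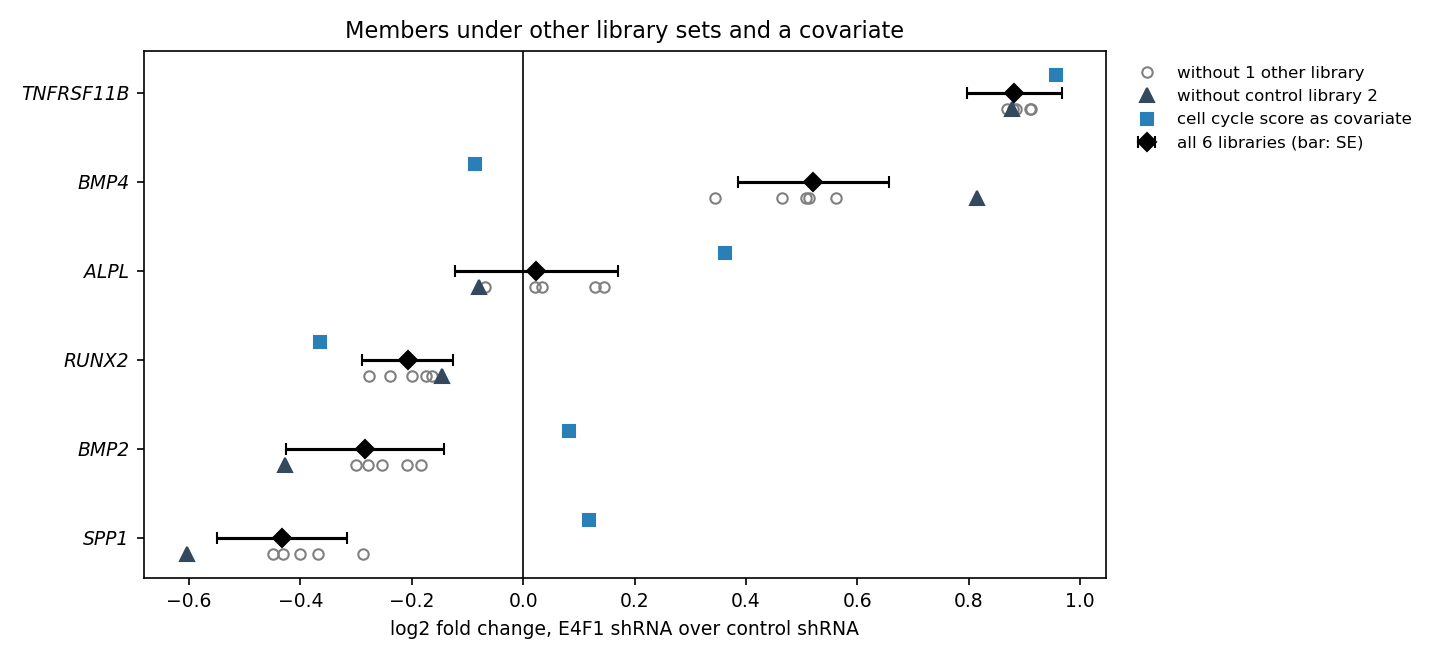
Log2 fold change (E4F1 shRNA over control shRNA) of the 6 tested genes with all 6 libraries (diamonds, bars are SE), without control library 2 (triangles), without each of the other 5 libraries (circles) and with the cell cycle covariate (squares). TNFRSF11B stays between 0.87 and 0.96, while SPP1, BMP2 and BMP4 lie on the other side of 0 with the covariate and ALPL crosses 0 when single libraries are left out.

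Per base of exon, BMP4 and SPP1 were the most abundant of the 9 genes. In RPKM, which is CPM divided by exon length in kilobases, the E4F1 shRNA means were 21.7 ± 0.910 for BMP4, 20.6 ± 0.747 for SPP1, 8.53 ± 0.243 for TNFRSF11B, 3.27 ± 0.182 for RUNX2, 2.43 ± 0.341 for ALPL and 1.93 ± 0.0598 for BMP2 (SD, n = 3). In these libraries BMP4 and SPP1 overlapped in level, and the other neighbours in this order did not. The control means were 27.8 ± 6.51 RPKM for SPP1, 15.1 ± 4.80 for BMP4, 4.63 ± 0.157 for TNFRSF11B, 3.78 ± 0.329 for RUNX2, 2.39 ± 0.381 for ALPL and 2.35 ± 0.447 for BMP2 (SD, n = 3). Thus SPP1 and BMP4 stood in the opposite order in the controls, where their ranges of 20.54 to 33.1 and 11.2 to 20.47 RPKM just missed each other. ALPL and BMP2 overlapped in level in the controls, and TNFRSF11B and RUNX2 did not.

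Of 9 listed target genes of BMP signalling, 8 were tested, 4 fell and none rose, with a median log2 fold change of −0.33, against 14.4% lower over all genes. The list leaves out BAMBI, which BMP also induces and which rose (log2 0.65, adjusted p = 0.00114). BAMBI was counted with the antagonists below, so the absence of rising targets depends on that placing. BMP4, a ligand that activates BMP target genes, had the opposite sign to the listed targets that fell in the comparison of all 6 libraries. With the cell cycle covariate it had a negative sign, −0.086. ID1, a direct SMAD target that restrains differentiation, measured 115.2, 115.8 and 115.4 CPM in the E4F1 shRNA libraries, against 148.7, 154.1 and 158.6 CPM in the control libraries. Its groups lay apart, with control library 2 between the other control libraries, and the log2 fold change was −0.41 (SE 0.0517, adjusted p = 1.83e-05). ID3, a relative of ID1, had a log2 fold change of −0.44 (SE 0.0797, adjusted p = 0.000582). ATOH8, a further SMAD target, averaged 1.499 ± 0.257 and 3.02 ± 0.837 CPM in E4F1 shRNA and control cells (SD, n = 3 each; log2 −1.01, SE 0.243, adjusted p = 0.00495). ID2 had −0.36 (SE 0.105, adjusted p = 0.0158), and its call was lost without E4F1 shRNA library 2 or 3 (adjusted p up to 0.0685). With the cell cycle covariate, ID1 and ATOH8 passed at log2 fold changes of −0.40 and −1.54 (adjusted p = 0.00110 and 0.00335). ID3, at −0.26 (0.162), and ID2, at −0.38 (0.211), did not pass, and the value of ID2 was about as large as without the covariate.

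Of 15 BMP antagonists, which bind ligands or block receptors, 12 were tested, 3 rose and 2 fell, with a median log2 fold change of −0.023 (5 of 12 called, beside 28.9% of all genes tested). FSTL3, a secreted binder of activins and related ligands, averaged 67.6 ± 0.246 and 86.1 ± 2.73 CPM in E4F1 shRNA and control cells (SD, n = 3 each; log2 −0.35, SE 0.0559, adjusted p = 0.000202). BAMBI, a pseudoreceptor that dampens signalling and is itself induced by BMP, averaged 9.15 ± 0.508 and 5.80 ± 0.697 CPM in E4F1 shRNA and control cells (log2 0.65, SE 0.128, adjusted p = 0.00114). TWSG1, a BMP-binding protein, had 0.25 (SE 0.0602, adjusted p = 0.00486), a call lost without E4F1 shRNA library 2 (adjusted p = 0.0501). CRIM1, a membrane protein with BMP-binding repeats, had −0.17 (SE 0.0514, adjusted p = 0.0209), and its call was lost without E4F1 shRNA library 1 or 2 or control library 1 or 3 (adjusted p up to 0.112). Of these 4, FSTL3 alone passed with the cell cycle covariate (log2 −0.41, adjusted p = 0.00150). TWSG1 kept its size at 0.26 (0.0847), BAMBI stood at 0.43 (0.237) and CRIM1 at −0.078 (0.607).

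A list of 14 other BMP and TGF-beta family ligands counted BMP1 by its name. Of its genes, 8 were tested, 2 rose and 2 fell, BMP1 among them, with a median log2 fold change of 0.063 (4 of 8 called, beside 28.9% of all genes tested). BMP1, which despite its name is a protease that trims collagen precursors, had a log2 fold change of −0.39 (SE 0.0699, adjusted p = 0.00057). INHBA, the activin A subunit, averaged 265.7 ± 6.64 and 215.1 ± 17.5 CPM in E4F1 shRNA and control cells (SD, n = 3 each; log2 0.31, SE 0.0591, adjusted p = 0.00102). TGFB1 had −0.29 (SE 0.0594, adjusted p = 0.00149). BMP6, an osteogenic ligand, had 0.46 (SE 0.143, adjusted p = 0.0215), which was lost without E4F1 shRNA library 2 or control library 1 (adjusted p up to 0.0915) and with DESeq2's Wald test. With the cell cycle covariate INHBA and TGFB1 passed at log2 fold changes of 0.40 and −0.29 (adjusted p = 0.00257 and 0.0355). BMP6, at 0.48 (0.267), kept its size without passing, and BMP1 stood at −0.23 (0.175).

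Of 17 receptors, SMADs and partners of the BMP pathway, 16 were tested, 3 rose and 1 fell, with a median log2 fold change of 0.029 (4 of 16 called, beside 28.9% of all genes tested). XIAP, known as a caspase inhibitor and also as a link from BMP receptors to TAB1, averaged 54.2 ± 3.70 and 40.6 ± 3.24 CPM in E4F1 shRNA and control cells (SD, n = 3 each; log2 0.42, SE 0.0738, adjusted p = 0.000476). ENG (endoglin), a co-receptor, had −0.43 (SE 0.0849, adjusted p = 0.00124). The receptors BMPR1A and ACVR2B each had 0.27 (SE 0.0787 and 0.0860, adjusted p = 0.0148 and 0.0267), and each lost its call without E4F1 shRNA library 2 or 3 or control library 3 (adjusted p up to 0.0838 and 0.137). XIAP passed with the cell cycle covariate (log2 0.41, adjusted p = 0.0250), and ENG (−0.29, 0.181), BMPR1A (0.13, 0.574) and ACVR2B (0.21, 0.403) did not.

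**Figure D4:**
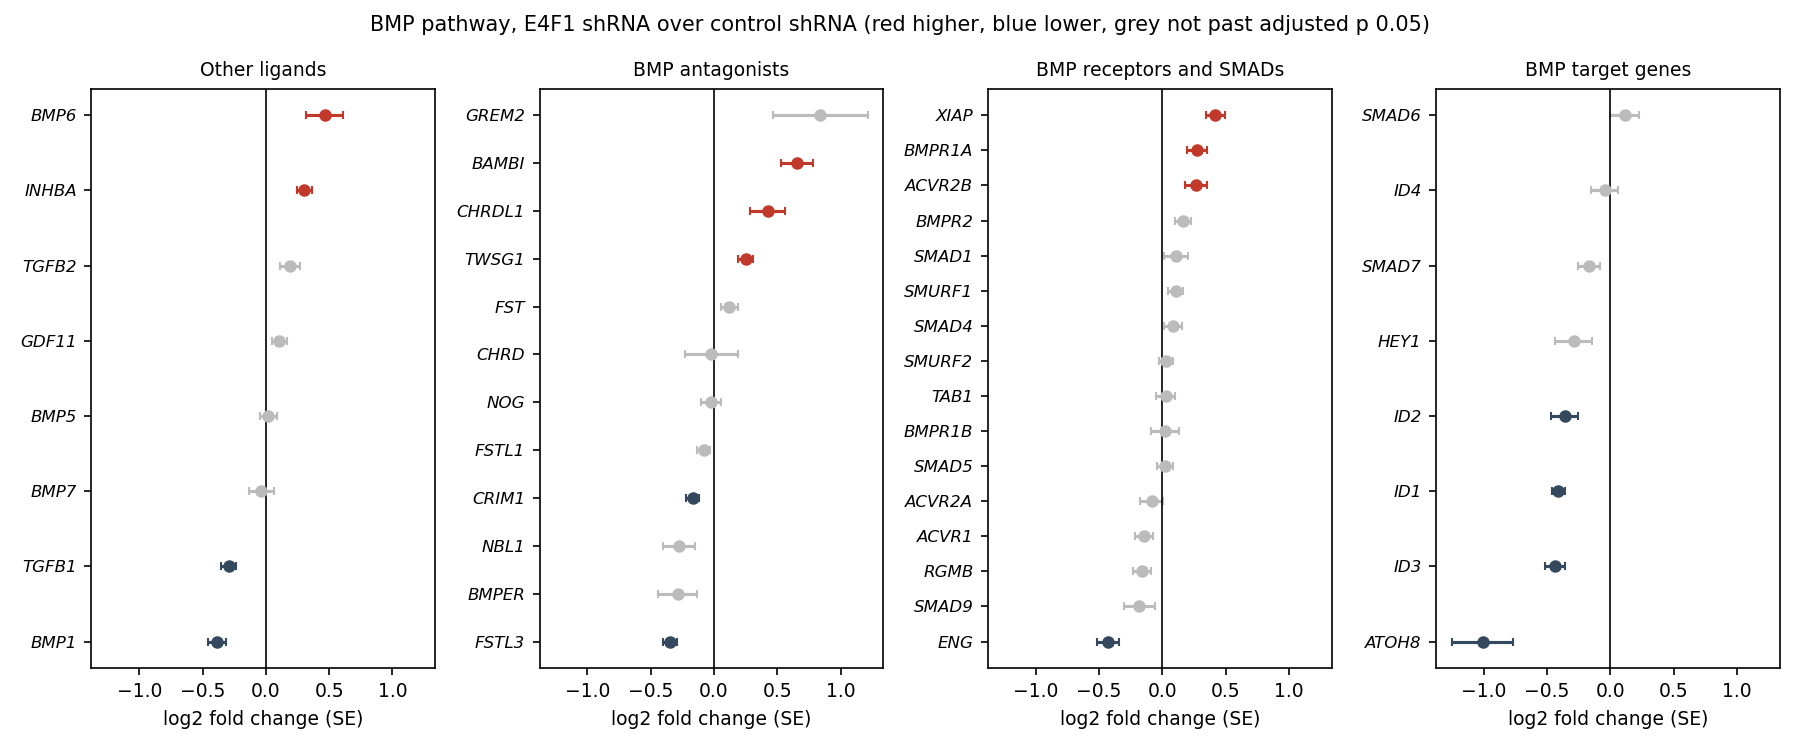
Log2 fold change (E4F1 shRNA over control shRNA, bars are SE of the edgeR fit) of every tested gene in 4 lists of the BMP pathway, with genes past adjusted p 0.05 in red where higher and blue where lower. All 4 coloured BMP target genes lie below 0, while the other 3 lists hold coloured genes on both sides. BAMBI, which BMP also induces, is shown in red among the antagonists.

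Osteopontin and bone sialoprotein are bound at the cell surface by integrins and CD44. Of 10 such receptor genes, 8 were tested, 3 rose and 1 fell, with a median log2 fold change of 0.032 (4 of 8 called, beside 28.9% of all genes tested). ITGB8 averaged 53.8 ± 6.25 and 38.3 ± 4.59 CPM in E4F1 shRNA and control cells (SD, n = 3 each; log2 0.49, SE 0.0907, adjusted p = 0.000701), and ITGA4 had 0.45 (SE 0.0926, adjusted p = 0.00171). ITGA5, a chain of the fibronectin receptor, had −0.36 (SE 0.0673, adjusted p = 0.000789). ITGB3, the chain of the classical osteopontin receptor, averaged 2.64 ± 0.255 and 1.39 ± 0.482 CPM in E4F1 shRNA and control cells (log2 0.92, SE 0.251, adjusted p = 0.0109), and its call was lost without control library 3 (adjusted p = 0.0631). None of the 4 passed with the cell cycle covariate, where the log2 fold changes were 0.38 for ITGB8 (adjusted p = 0.0731), 0.41 for ITGA4 (0.0998), −0.11 for ITGA5 (0.467) and 0.57 for ITGB3 (0.463).

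WNT signalling is a further driver of bone formation. Of 20 genes of this pathway, 18 were tested, 5 rose and 1 fell, with a median log2 fold change of 0.073. That is 6 of 18, beside 28.9% of all genes tested. SFRP1, a secreted WNT inhibitor, averaged 39.0 ± 2.86 and 24.0 ± 2.99 CPM in E4F1 shRNA and control cells (SD, n = 3 each; log2 0.70, SE 0.0887, adjusted p = 2.14e-05). FZD1, a WNT receptor, averaged 35.8 ± 2.34 and 23.8 ± 2.69 CPM in E4F1 shRNA and control cells (log2 0.59, SE 0.0861, adjusted p = 8.98e-05). Both passed with the cell cycle covariate at log2 fold changes of 0.41 and 0.39 (adjusted p = 0.0261 and 0.0497). DKK3 had −0.19 (adjusted p = 0.0111) and WNT5A 0.24 (adjusted p = 0.0174). The DKK3 call was lost without E4F1 shRNA library 1 or 2 and the WNT5A call without E4F1 shRNA library 2 or 3 or control library 3 (adjusted p up to 0.0629 and 0.0834). With the covariate neither passed, at −0.14 for DKK3 (0.300) and a slightly larger 0.27 for WNT5A (0.165).

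Of 13 hormone and growth factor receptors and targets used by osteoblasts, 11 were tested, 1 rose and 2 fell, with a median log2 fold change of −0.049 (3 of 11 called, beside 28.9% of all genes tested). PDGFRB, a receptor of mesenchymal progenitors, averaged 30.3 ± 1.06 and 40.2 ± 3.06 CPM in E4F1 shRNA and control cells (SD, n = 3 each; log2 −0.41, SE 0.0740, adjusted p = 0.000546). FGFR2, a receptor whose activating mutations fuse skull sutures early, averaged 21.1 ± 1.36 and 14.7 ± 1.72 CPM in E4F1 shRNA and control cells (log2 0.52, SE 0.0985, adjusted p = 0.000807). Both passed with the cell cycle covariate at log2 fold changes of −0.55 and 0.56 (adjusted p = 0.000940 and 0.0270). IGF1R had −0.19 (adjusted p = 0.0134), which was lost without E4F1 shRNA library 1 or 2 or control library 1 (adjusted p up to 0.0946) and with the covariate (log2 −0.09, 0.547).

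The nearest protein-coding genes on either side of each of the 9 genes were taken from the annotation, passing over genes that overlap it. They lay from 1711 bases (AAAS, beside SP7) to 1102701 bases (HAO1, beside BMP2) away, and SAMD12 lay 301445 bases from TNFRSF11B. Their values are from the comparison of all 6 libraries only. Among all genes tested, 28.9% were called in either direction. SAMD12, the neighbour of TNFRSF11B, averaged 24.3 ± 1.14 and 19.6 ± 1.15 CPM in E4F1 shRNA and control cells (SD, n = 3 each; log2 0.31, SE 0.0829, adjusted p = 0.00958), a smaller value than the 0.88 of TNFRSF11B. COLEC10 on its other side had 0 to 4 reads. Beside BMP4, CDKN3, a phosphatase that acts on cell cycle kinases, had 0.30 (adjusted p = 0.00424), and DDHD1 on the other side had −0.15 (adjusted p = 0.0767). Beside SPP1, PKD2 had 0.24 (adjusted p = 0.0289), where SPP1 had −0.43 (0.12 with the cell cycle covariate), and MEPE had 0 to 1 reads. On the sides of RUNX2, CDC5L, 877731 bases away, had 0.29 (adjusted p = 0.000754) and CLIC5, 216478 bases away, had 0.73 (adjusted p = 0.0146). SUPT3H, which overlaps RUNX2, was passed over in this choice. RUNX2 itself had −0.21, which did not pass the test (adjusted p = 0.0663). Beside ALPL, NBPF3 had 0.32 (adjusted p = 0.0111) and RAP1GAP had 0.43 (adjusted p = 0.0761). Beside SP7, SP1, a related zinc finger factor, had 0.24 (adjusted p = 0.00794) and AAAS had 0.032 (adjusted p = 0.795). Beside BMP2, FERMT1 had 0.23 (adjusted p = 0.0826) and HAO1 had 0 to 2 reads. SMG5, after BGLAP, had 0.095 (adjusted p = 0.212), and IBSP stands between DMP1 and MEPE, which had at most 4 reads.

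For each tested gene, the 3 protein-coding genes with the most similar level over the 6 libraries (average log2 CPM 3 or more) were picked by Pearson correlation of log2 CPM among 10072 or 10073 genes. With 6 libraries and so many genes compared, such values are a description and carry no p. SPP1 was most like LRRC15 (r = 0.999), LPXN (0.995) and SLFN5 (0.995). TNFRSF11B was most like SHROOM3 (0.998), G3BP2 (0.997) and ISCA2 (0.997). BMP4 was most like PDS5B (0.998), ARPIN (0.998) and SERTAD4 (0.996), and BMP2 was most like ATP6AP2 (0.994), MR1 (0.990) and MCC (0.988). RUNX2 was most like C6orf89 (0.991), DIDO1 (0.985) and NF2 (0.983), and ALPL was most like WASHC4 (0.993), EMC9 (0.985) and ARHGDIB (0.972).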

How the data were processed

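The deposited files hold counts of reads per gene, with a table for each library laid out as STAR writes them. The authors used bcl2fastq 2.20, STAR 2.5.1b and GRCh38, per the submitters' processing notes; which annotation release they used is not given here. The reverse-strand counts were used, so antisense genes were counted apart, and reads on bases shared by genes of the same strand were in no gene. Lines that name no gene held 27.1% to 31.7% of each table and were left out. Symbols, coordinates and merged exon lengths came from GENCODE 29 (GRCh38), in which 57881 of 58219 identifiers matched without version.

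Low counts were removed with filterByExpr, libraries were scaled with TMM, and the groups were compared with edgeR 4.0.16 (R 4.3.3) by the two-sided quasi-likelihood test with group as the only term. P-values were adjusted by Benjamini-Hochberg over 15765 genes, threshold 0.05. SE is that of the fitted log2 fold change, and n = 3 libraries per group. Alternatives were DESeq2 1.42.0, limma-voom (limma 3.58.1), other scalings and filters, counts ignoring strand, a replicate block, the cell cycle covariate and leaving out each library. The fitting steps were tested on simulated data.

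The members and the 18 other gene lists were chosen with earlier results of these data known. The genes named are the members, E4F1, up to 4 members of each list with the smallest adjusted p, neighbours of the members, and the genes most like each member. For all these bulk values, fewer cells of a kind and less RNA per cell cannot be told apart.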

Additional observations from a re-analysis of the deposited data

How the results depend on the processing

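The number of members called higher was 2, and 1 with DESeq2's Wald test and with the cell cycle covariate; leaving out 1 library gave 1 to 2. The number called lower was 1, and 0 with DESeq2's Wald test and with the covariate; leaving out 1 library gave 0 to 2. The log2 fold change changed sign with the covariate for SPP1 (0.12), BMP2 (0.081), BMP4 (−0.086) and GPNMB (0.00101). That of ALPL ranged from −0.080 to 0.145 when 1 library was left out. The cause was not tested. With the replicate block, 2 members were called higher and 1 lower, as without it, and no member changed its call. The correlations of same-numbered libraries were 0.0070, 0.047 and 0.048, so the numbers were not taken as pairs. Over all genes, 2274 were higher and 2276 lower, against 593 and 407 with the covariate, and 1419, 1426 and 1503 were lower without E4F1 shRNA library 1, E4F1 shRNA library 2 and control library 3. Of 43 genes named from the other lists, 29 passed in every fit with 1 library left out, and 13 passed with the covariate. At this depth SP7, IBSP and BGLAP, at 0 to 4 reads, allowed no comparison.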

Other observations

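Markers of other cell types were low apart from a few genes. The calls in each list stand beside 14.4% higher and 14.4% lower, 28.9% in either direction, among all genes tested. Of 8 chondrocyte markers, 4 were tested and 2 rose: SOX9, a cartilage factor, averaged 168.6 ± 7.64 and 135.3 ± 2.04 CPM in E4F1 shRNA and control cells (SD, n = 3 each; log2 0.32, SE 0.0531, edgeR adjusted p = 0.000295), and MATN3 had 0.31 (adjusted p = 0.0225), lost without E4F1 shRNA library 2 or control library 1 or 3 (adjusted p up to 0.0991) and with the cell cycle covariate (log2 0.072, 0.828), with which SOX9 passed (log2 0.33, 0.00801). COL2A1, the cartilage collagen, had 1 to 5 reads. The summed level of the list was 187.1 to 201.5 CPM in E4F1 shRNA libraries and 155.1 to 161.6 CPM in control libraries, and its part in the results above was not tested.

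Of 7 adipocyte markers, 3 were tested and LPL rose (log2 0.44, adjusted p = 0.00678), a call lost with the cell cycle covariate (log2 0.29, 0.370). PPARG averaged 25.4 ± 2.10 and 26.2 ± 1.35 CPM in E4F1 shRNA and control cells (SD, n = 3 each) and did not pass (adjusted p = 0.728). FABP4 had 0 to 4 reads and ADIPOQ had 0. The counts in these lists also stand beside 28.9% called of all genes tested. Of 10 osteoclast and blood markers, 5 were tested and ITGB2 fell (log2 −0.88, SE 0.159, adjusted p = 0.000563), also with the covariate (adjusted p = 0.00380). The summed level of that list was 7.60 to 9.14 CPM in E4F1 shRNA libraries and 10.4 to 12.9 CPM in control libraries, and CD68 had 0 to 2 reads. Of 7 epithelial markers, 4 were tested, CLDN4 (−0.49, adjusted p = 0.0110) and CDH1 (−0.41, 0.0442) fell and EPCAM (0.43, 0.0229) rose, and each of these calls was lost without some single library (adjusted p up to 0.0733, 0.232 and 0.0891). With the cell cycle covariate none of the 3 passed, at log2 fold changes of −0.20 for CLDN4 (adjusted p = 0.620), −0.039 for CDH1 (0.946) and 0.23 for EPCAM (0.607). CDH1 passed in 5 of the 9 alternatives that kept all libraries. The 1 muscle marker and 2 endothelial markers tested did not pass.

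The heptamer CTTATCT in 3′ untranslated regions (UTRs), which was picked earlier from these same data, was in 0 of the 9 osteoblast lineage genes. Of the tested genes with a protein-coding transcript and a stop codon in the annotation, 12.9% held it. Genes without a 3′ UTR were counted as not holding it. Of the genes that held the heptamer, 36.9% were called higher, against 13.6% of the genes without it. That difference is no test, because the heptamer was picked from these data, and the length of the 3′ UTRs was not taken into account.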
